A study of Glycine max with 12 samples.

Results

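The late-maturation genes described here are soybean transcripts that were abundant in seed at late maturation and far lower at mid maturation. They were chosen from the deposited RPKM of these 2 stages, a read count divided by gene length and by library size: at least 100 RPKM at late maturation, and at least 20 times the mid-maturation value after 0.5 RPKM was added to the latter. An identifier absent from a file was taken as 0. This rule chose 162 of 44202 identifiers, or 0.366%. The difference between mid and late maturation therefore chose the genes and is given as a description only.

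Messenger RNA was sequenced in 12 libraries of the cultivar Williams 82, and every stage or organ had a single one. Whole seeds were taken with embryos at the globular stage (0.8 to 1.1 mm long), heart stage (2 to 2.5 mm), cotyledon stage (3 to 3.9 mm), early maturation (6 to 7 mm), at mid maturation with lengths of 1.1 to 1.3 cm and weights of 150 to 250 mg, at late maturation with 1.2 to 1.5 cm and 230 to 350 mg, and as dry seeds of about 200 mg. Per the labels, embryos were mostly green at mid maturation, apart from a yellow axis tip, and wholly yellow at late maturation. The other 5 libraries came from trifoliate leaves, roots and stems of a mature plant, floral buds that had not opened, and intact seedlings at 6 days from imbibition. Without replicates there is no spread to test against, so no test of a difference between groups was possible, and intervals below cover counting error only.

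Maturation is the phase in which a seed first fills with storage protein and oil and then loses water and becomes quiescent. Late in this phase, seeds of many plants accumulate transcripts for protective proteins, such as late embryogenesis abundant proteins and small heat shock proteins, under the control of abscisic acid and the regulators that act with it. Part of this messenger RNA is kept in the dry seed and degraded after imbibition. The dry-seed and seedling libraries show whether a transcript abundant at late maturation is also present there, not whether it is stored or used. Which of the genes here encode such proteins cannot be said, because none of their identifiers was paired with a name in the files or matched the gene table used here. They are called by their locus identifiers, which by convention carry the chromosome number ahead of the letter g.

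Depth was sufficient for all of these genes at late maturation. The RPKM values implied 59.5 M (mega) reads for mid maturation and 104 M for late maturation, with at least 1706 late-maturation reads behind each chosen gene. The 10 count libraries held 10.3 M (stem) to 45.7 M (globular) counts, in which 3 counts, the upper limit that a count of 0 allows, equal 0.0602 CPM (globular) to 0.283 CPM (stem). Of the 162 genes, 144 had counts, and 18 were listed in the RPKM files only. All 18 had identifiers ending in a digit other than 0, a form that 8414 identifiers of the RPKM files had and that stood in no count file. Identifiers without counts made up 11.1% of the chosen genes and 19.5% of all those in the RPKM files. The 18 genes ranged from 104 to 3608 RPKM at late maturation, with a median of 464, and nothing more can be said of them. The tissue labels were checked with 4 loci of published assignment to glycinins, beta-conglycinin and seed lectin. All 4 had at least 169.8 CPM (counts per mega-count of TMM-scaled library size) at early maturation and in dry seed. They had at most 10.21 CPM in any organ other than seed. From mid to late maturation the 4 loci fell from 27614 to 658 RPKM, 32999 to 3976, 22703 to 1609 and 12759 to 126. Whether this fall bears on the RPKM of the chosen genes was not tested.

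**Figure D1:**
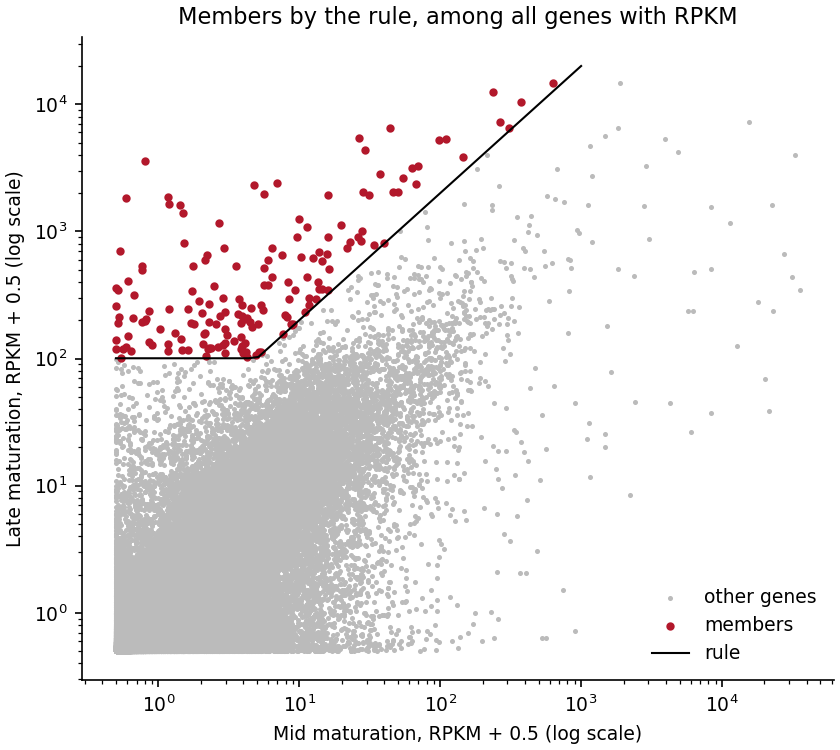
Deposited RPKM + 0.5 of every gene at mid maturation (horizontal, log scale) and late maturation (vertical, log scale), 1 library each. Points in red are the 162 chosen genes and the line is the rule that chose them, so their position above it is fixed by the choice; they reach from 100.9 to 14648 RPKM at late maturation.

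At late maturation the genes spread over more than 2 orders of magnitude. The lowest had 100.9 RPKM, the median was 294 and the highest 14648 RPKM. In all, 35 genes reached 1000 RPKM, while 55 lay under 200. At mid maturation the median was 3.55 RPKM, 4 genes were listed at 0, 36 lay under 1 RPKM and 45 at 10 RPKM or more. The genes were thus not all silent at mid maturation, where 7 already had at least 100 RPKM at mid maturation. Together they made up 0.543% of the sum of RPKM at mid maturation and 26.9% at late maturation. The 10 highest carried 46.0% of that late-maturation sum. The median ratio of late to mid maturation, with the 0.5 RPKM added to the latter, was 62.2 and the highest 4518.

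The highest gene was Glyma17g03040, with 634 RPKM at mid and 14648 at late maturation. It was followed by Glyma09g31740 (237 and 12595 RPKM), Glyma03g30040 (371 and 10449), Glyma19g32920 (265 and 7291) and Glyma10g07410 (307 and 6500). Each of these 5 already had more than 200 RPKM at mid maturation. The other 5 of the 10 highest had less: Glyma16g03470 (43.4 and 6449 RPKM), Glyma03g34680 (25.8 and 5421), Glyma20g28550 (109 and 5304), Glyma03g07470 (98.1 and 5199) and Glyma17g04550 (28.6 and 4406). Levels in RPKM are per length and can be ranked between genes, except that reads from near-identical gene copies, which soybean has in number, may be divided between them in ways the sources used here do not give.

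The cut at 100 RPKM fell within a continuous range. Just inside lay Glyma06g03430 (100.9 RPKM at late maturation), Glyma15g25060 (101.8), Glyma01g02215 (104.4) and Glyma01g02800 (106.7). Just outside lay Glyma15g31520 (99.2), Glyma06g13960 (97.9), Glyma08g13950 (96.9) and Glyma02g38270 (94.2), each past the required ratio. On the ratio, Glyma18g00590 (20.2), Glyma20g26610 (20.4), Glyma10g28100 (20.5) and Glyma05g01845 (20.6) were just inside, and Glyma06g19310 (19.98), Glyma19g42490 (19.7), Glyma15g06100 (19.7) and Glyma01g37980 (19.5) just outside.

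By identifier the genes lay on all 20 chromosomes, from 4 on chromosome 18 to 12 each on chromosomes 1 and 17. Only 5 pairs, 10 genes in all, were next to each other in the order of identifiers: Glyma03g04910 with Glyma03g04920, Glyma08g08621 with Glyma08g08630, Glyma12g09380 with Glyma12g09390, Glyma17g13720 with Glyma17g13730, and Glyma20g01423 with Glyma20g01430. The gene lengths that the RPKM values imply had a median of 1226 nt, against 1441 nt for all genes, and ran from 64 to 6219 nt. A length recovered in this way may be a whole fraction of the true one, and 7 of the genes came out under 300 nt.

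The dry seed, a library the choice did not use, held these transcripts in quantity. Of the 144 genes with counts, 142 had at least 10 CPM in dry seed and 130 had at least 100 CPM, with a median of 597 CPM. At early maturation the median was 6.65 CPM, and 58 genes reached 10 CPM. No share over all genes was computed for these numbers at 10 and 100 CPM. The 144 genes took 18.5% of all counts in dry seed and 0.225% at early maturation. In the dry seed, the 10 with most counts took 52.0% of the counts of the 144. In whole seeds and organs, fewer cells that hold a transcript and less of it per cell cannot be told apart.

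**Figure D2:**
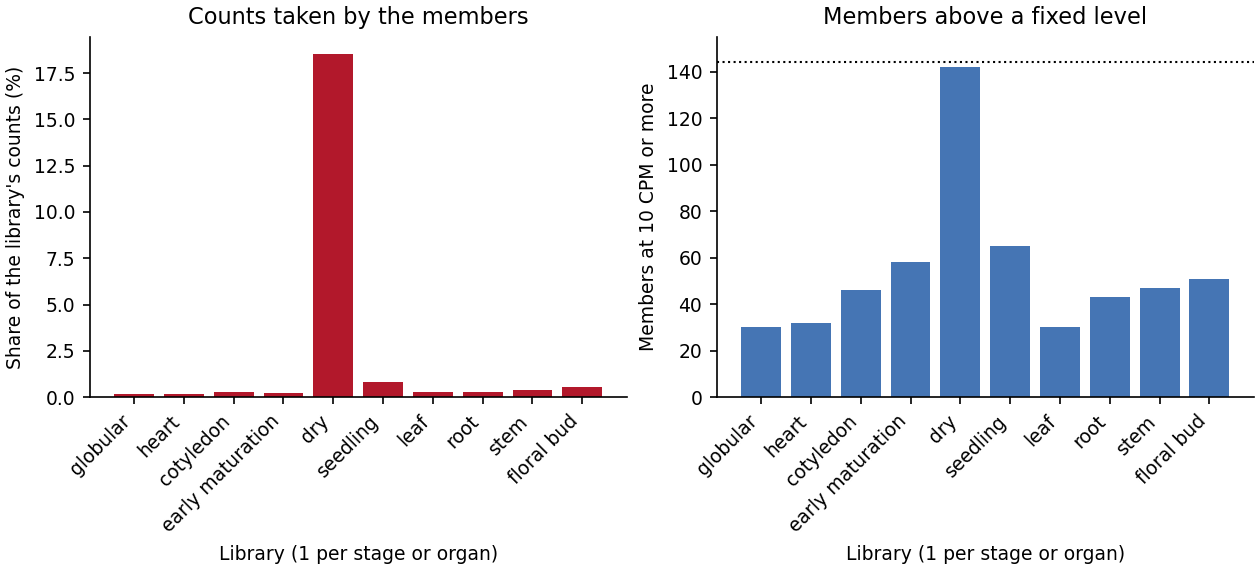
Left, share of each count library's total that fell on the 144 genes, in percent; right, number of them at 10 CPM or more, with the dotted line at 144; 1 library per stage or organ. Dry seed stood apart with 18.5% of its counts, against 0.827% in seedling, the next highest share. The share of all genes at 10 CPM or more was not computed.

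Between early maturation and dry seed, 139 of the 144 genes were called higher, meaning at least 4-fold with at least 10 CPM in the higher library. That is 96.5% of them, against 13.7% of all 32161 genes measured. None was called lower, against 17.9% of all genes. Among the other genes with at least 100 RPKM at late maturation, 38.2% of those measured were called higher. The median log2 ratio was 6.80 over the 144 and -0.29 over all measured genes. For 74 of the 144 the fold exceeded 100, a level at which no share over all genes was computed. The median over all genes moved with the scaling, from -0.29 with TMM factors to -0.10 with DESeq2 size factors and -0.96 in plain CPM, and 139 genes were called higher under each.

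With counts under 3 set to 3, Glyma01g29480 had the highest ratio of dry seed to early maturation. It had 0 counts in globular, heart and cotyledon seed, 0.142 CPM at early maturation, 2642 CPM in dry seed, 0.412 in seedling, 0.0448 in leaf, 0 counts in root, 0.189 CPM in stem and 0.0244 in floral bud. No count library other than dry seed reached 0.5 CPM. The fold over early maturation was 18639 (95% counting interval 7986 to 57408), from 5 and 33585 counts. Glyma08g22630, next in order on that basis, stood at 0.482 CPM at early maturation and 5567 CPM in dry seed, 11551-fold (7214 to 19831). Without the floor Glyma06g03430, with 1 count at early maturation and 11287 in dry seed, had a ratio of 31320, but with an interval of 5620 to 1237200.

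Among the highest genes of late maturation, levels in developing seed before the dry state differed widely. Glyma09g31740 had 0.562 CPM in globular, 2.76 in heart, 22.4 in cotyledon and 98.7 in early-maturation seed, 37875 CPM in dry seed, 276 in seedling, 0.0448 in leaf, 0.515 in root, 2.07 in stem and 39.5 in floral bud. It was higher at each later seed stage counted, and its dry-seed level was 384-fold (371 to 397) that at early maturation. Glyma16g03470 stayed under 2.5 CPM in all 4 developing seed stages counted, at 0.241, 0.126, 0.141 and 2.27 CPM, and had 17220 CPM in dry seed, 7593-fold (6101 to 9577) above early maturation. It had 6.19 CPM in seedling, 0.328 in root, and 0 counts in leaf, stem and floral bud. Glyma17g03040 had 0.401, 3.72, 39.1 and 362 CPM from globular stage to early maturation, again higher at each later stage counted. It had 12600 CPM in dry seed, 34.8-fold (34.2 to 35.5) above early maturation. Mid maturation was not counted. In RPKM the gene had 1943 at early maturation, computed from counts, and 634 at mid maturation. Its recovered length was 172 nt, so the computed RPKM may be too high.

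**Figure D3:**
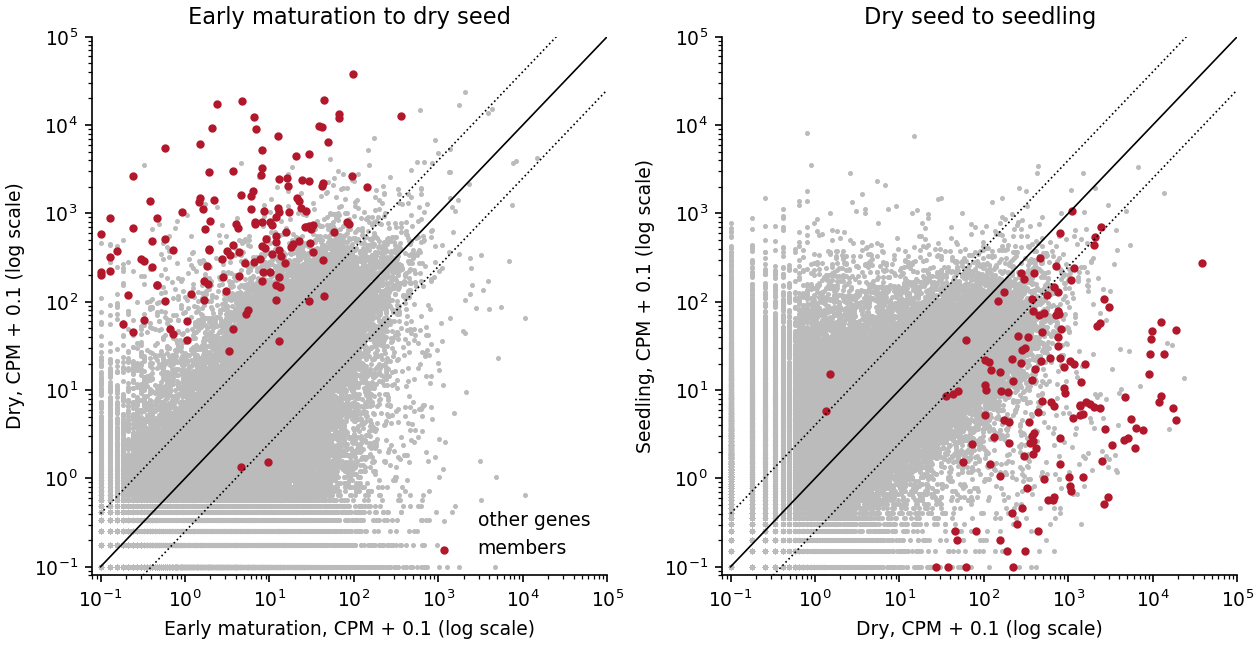
CPM + 0.1 of each gene on log axes, 1 library per axis: early maturation against dry seed (left) and dry seed against seedling (right). Red points are the 144 chosen genes with counts and grey points are all other genes; 139 red points were called higher in dry seed than at early maturation and 129 lower in seedling than in dry seed.

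The 5 genes not called higher in dry seed were of 2 kinds. Glyma12g09380 and Glyma08g08630 were low in all 10 count libraries. Glyma12g09380 had 4.56 CPM at early maturation and 1.26 in dry seed, and lay between 3.35 and 6.50 CPM in the other 8. Glyma08g08630 had 9.44 and 1.42 CPM, and lay between 7.07 and 16.1 CPM in the other 8. For both, the dry seed was the lowest of the 10 libraries. At late maturation they had 895 and 264 RPKM. The remaining 3, Glyma01g43020, Glyma13g35750 and Glyma04g21910, were chosen for mention after their values were seen, with log2 ratios of 1.47, 1.36 and 1.78, short of the 4-fold threshold.

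Both low genes sit next to another chosen gene. Glyma12g09390, beside Glyma12g09380, had 22.5 RPKM at mid and 831 at late maturation, values close to the 25.5 and 895 RPKM of its neighbour. In the count libraries the pair parted: Glyma12g09390 had 29.7 CPM at early maturation and 4718 CPM in dry seed, 159-fold (149 to 169) higher. Glyma08g08621, beside Glyma08g08630, had 594 RPKM at late maturation and was listed in the RPKM files only. Whether differences in gene models between the count and RPKM files play a part was not tested. Without the 10 neighbouring genes, a setting chosen after seeing the data, 133 were called higher in dry seed.

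Applied to early maturation and dry seed in place of mid and late maturation, the rule used libraries that had no part in choosing the genes. Dry-seed and early-maturation RPKM were computed from counts and recovered lengths. At least 100 RPKM in dry seed and 20 times early maturation were reached by 208 of 35594 genes, or 0.584%. Of these, 89 were late-maturation genes, which is 61.8% of the 144 and 42.8% of the 208. Between early and late maturation, the rule was met by 118 of the 144 (81.9%), against 0.438% of all genes. That comparison reuses the late-maturation values that chose the genes and crosses to files with another unit and other gene models.

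Late maturation and dry seed could be set side by side on the RPKM scale only, across these kinds of file, so that stage and batch cannot be told apart. Of the 144 genes, 77 lay within 2-fold, a count for which no share over all genes was computed, and 125 were not called at 4-fold. Higher in dry seed were 4, against 12.0% of all genes compared, and 15 were lower, against 3.95%. Because the genes were chosen for high late-maturation values, a lower value in another library is favoured by the choice, and nothing is read from this split. The median log2 ratio was -0.34 (quartiles -1.16 and 0.57). It was -0.19 in the other genes with at least 100 RPKM at late maturation and 0.31 over the 17478 genes that reached 1 RPKM in each of the 2 libraries. Across the 144 genes, Spearman's rho between late maturation and dry seed was 0.68 and Pearson's r of log2(RPKM + 0.5) was 0.73. These genes are not independent replicates and share the same pair of libraries. Over all 35594 genes with both values, Spearman's rho was higher, at 0.90.

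**Figure D4:**
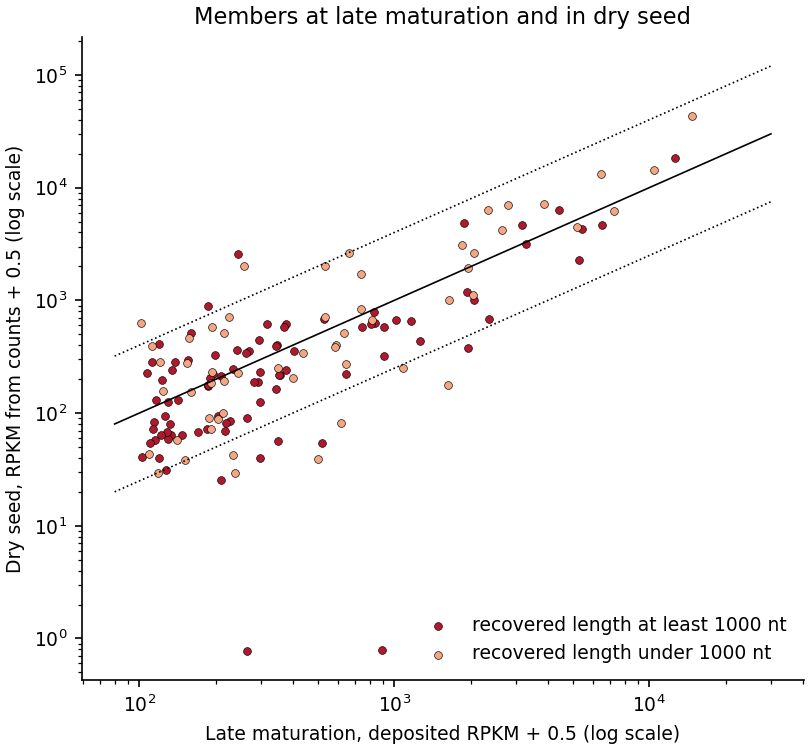
Deposited RPKM + 0.5 at late maturation (horizontal, log scale) against RPKM + 0.5 in dry seed computed from counts (vertical, log scale) for the 144 genes, 1 library each. Within 2-fold of the line of equal values lie 77 points. In dry seed 4 genes were called higher and 15 lower, against 12.0% and 3.95% of all genes compared. Of the 15, 2 lie far below the rest, at 0.293 and 0.273 RPKM in dry seed.

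The 4 genes called higher in dry seed were Glyma05g25000, Glyma08g22630, Glyma01g11390 and Glyma06g03430, all named because they are so few. Glyma08g22630 had 244 RPKM at late maturation and 2570 RPKM in dry seed. Glyma05g25000 had 257 and 2004 RPKM, but with a recovered length of 64 nt, so its computed dry-seed RPKM may be too high. At the other end, Glyma12g09380 and Glyma08g08630 had 0.293 and 0.273 RPKM in dry seed. Apart from these, the lowest log2 ratio among the 15 was -3.67, in Glyma04g03070, named after its value was seen. Glyma15g21980, chosen for mention after its values were seen, was the single gene with 3 counts or fewer in each of the 9 count libraries other than dry seed. It had 0.927 RPKM at mid and 1621 RPKM at late maturation, 1 count at early maturation, 221 CPM (176 RPKM) in dry seed, and 0 counts in each of the other 8 count libraries.

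From dry seed to seedling the transcripts fell again. In seedlings the median was 8.51 CPM and 65 genes reached 10 CPM, a number without a share over all genes. The fall passed 4-fold in 129 of the 144 genes, or 89.6%, against 13.0% of all 33740 genes measured and 53.3% of the other genes with at least 100 RPKM at late maturation. It passed 100-fold in 68 genes, again without a share over all genes. A single gene was called higher in seedling, against 18.2% of all genes, namely Glyma08g08630, with 1.42 CPM in dry seed and 15.2 CPM in seedling, 10.7-fold (6.68 to 18.4). The median log2 ratio was -6.39 over the 144 and 0.41 over all measured genes, and in plain CPM, where the median over all genes was 1.30, 114 genes were called lower. The steps from early maturation to dry seed and from dry seed to seedling share the dry-seed library, so they are not independent of each other.

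With counts under 3 set to 3, the deepest falls were those of Glyma01g29480, which went from 2642 to 0.412 CPM, 6406-fold lower (3251 to 14839), and Glyma10g33350, which went from 2928 to 0.515 CPM, 5679-fold lower (3088 to 11844). Glyma17g04550 had 18956 CPM in dry seed and 4.48 CPM in seedling, 4227-fold lower (3427 to 5277). Its seedling level was close to the 4.59 CPM at early maturation. Glyma09g31740, the gene with most counts in dry seed, still had 276 CPM in seedling after a 137-fold fall (134 to 141).

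A group of 15 genes was not called lower in seedling. Glyma14g05650 had 1108 CPM in dry seed and 1075 CPM in seedling, a ratio of 1.03 (1.01 to 1.05) whose interval covers counting error only. Glyma15g32800 had 803 and 600 CPM, Glyma16g04380 173 and 128 CPM, and Glyma03g04920 278 and 209 CPM. The direction of these 4 turned with the scaling: in plain CPM the log2 ratio of seedling to dry seed was 0.78, 0.40, 0.39 and 0.41, so none of the 4 has a direction here. Glyma17g13730 had 2462 and 693 CPM, 3.55-fold lower (3.48 to 3.62) and short of the threshold.

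**Figure D5:**
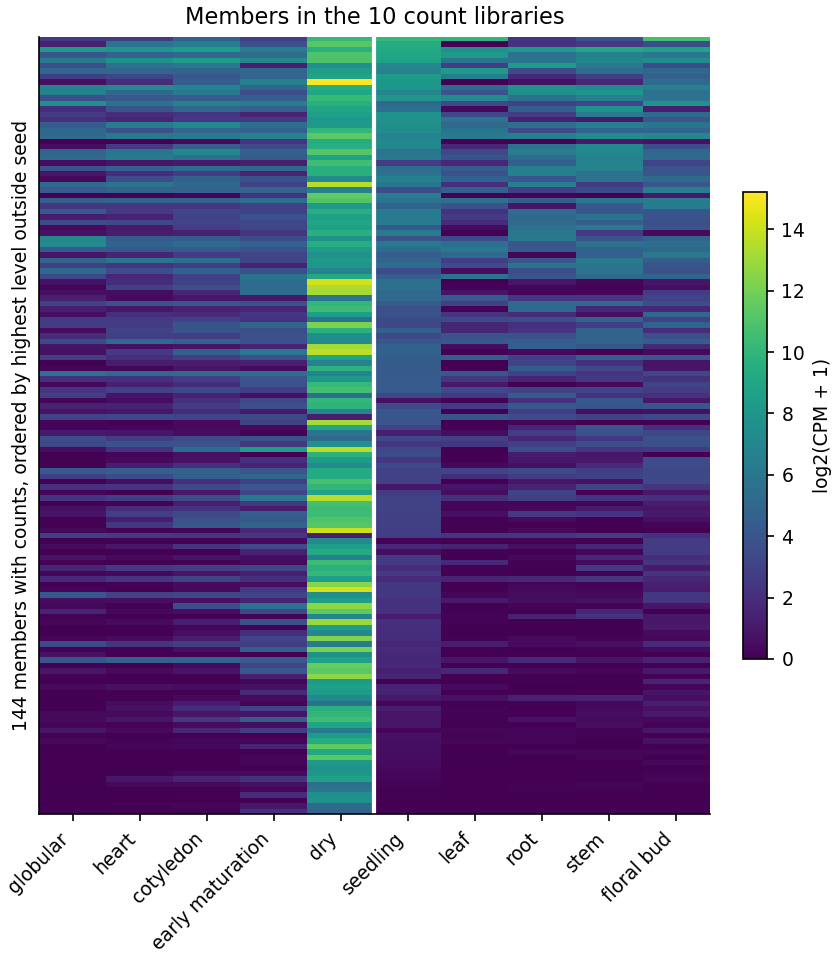
Level of the 144 genes (rows) in the 10 count libraries (columns, 1 library each) as log2(CPM + 1), with rows ordered by the highest level outside seed and a white line between seed and other libraries. The dry-seed column is high for 142 of 144 genes. The highest level outside seed declines from the top to the bottom rows because it sets their order. Columns of developing seed need not follow that order: Glyma20g28550, with at most 2.63 CPM outside seed, had 20.3 CPM at early maturation.

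Outside seed the genes ranged from those under 10 CPM in every organ to those present throughout. Among the 5 libraries outside seed, 64 genes reached 10 CPM in none, 22 in 1, 13 in 2, 10 in 3, 17 in 4 and 18 in all 5. Of the 64, 63 had at least 10 CPM in dry seed. For these numbers of genes no share over all genes was computed, so they describe the chosen genes only. Dry seed was called higher than leaf for 139 genes (14.5% of all genes measured), than root for 136 (14.1%), than stem for 134 (14.9%) and than floral bud for 135 (13.3%), and 123 genes were called in all 4 comparisons. The other genes with at least 100 RPKM at late maturation were often called too. Of those measured, dry seed was called higher than leaf for 58.2%, root for 57.1%, stem for 58.0% and floral bud for 53.0%. These 4 comparisons share the dry-seed library, and for the 123 no share over all genes was computed. Only Glyma08g08630 was called lower in dry seed, than in leaf and root, where 19.2% and 19.3% of all genes were. Organ medians were 0.448 CPM in leaf, 1.87 in root, 3.30 in stem and 3.74 in floral bud.

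For 118 of the 144 genes, or 81.9%, the best of the 5 counted seed libraries exceeded the best of the 5 libraries outside seed by at least 4-fold, which is called seed-preferred here. That held for 8.03% of all genes and for 44.2% of the other genes with at least 100 RPKM at late maturation. The dry seed was the highest of the 10 count libraries for 140 genes (97.2%, against 24.2% of all genes). The 4 exceptions were Glyma12g09380 (highest in globular seed), Glyma14g05650 (floral bud), Glyma16g04380 (root) and Glyma08g08630 (leaf). In plain CPM the count was 130.

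Among the seed-preferred genes, contrasts with mature organs were very large. Glyma03g30040 had 19058 CPM in dry seed, 0 counts in leaf, 0.890 CPM in root, 0.189 in stem and 0.782 in floral bud. Dry seed was at least 141720-fold higher than leaf when the 0 counts in leaf were set to 3, and 21408-fold higher (13709 to 35559) than root. Glyma16g03470 and Glyma03g34680 had 17220 and 9051 CPM in dry seed and 0 counts in leaf, stem and floral bud. Glyma20g28550 had 4518 CPM in dry seed, 0 counts in leaf and root, 0.0943 CPM in stem and 0.342 in floral bud.

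The 26 genes that were not seed-preferred included some with high levels elsewhere. Glyma14g05650 had 4.90, 5.61, 25.7 and 6.01 CPM from globular stage to early maturation, 1108 in dry seed, 1075 in seedling, 969 in leaf, 3.98 in root, 12.9 in stem and 1675 in floral bud. Thus root and stem were far below dry seed and floral bud was above it. Its log2 ratio of dry seed to leaf was 0.19 with TMM factors and -0.50 in plain CPM, which gives no direction. Glyma15g32800 was present throughout, with 310, 236, 353 and 83.2 CPM in developing seed, 803 in dry seed, 600 in seedling, 200 in leaf, 330 in root, 603 in stem and 452 in floral bud. Early maturation was its lowest library. Dry seed was its highest with TMM factors but not in plain CPM, where the log2 ratio of dry seed to stem was -0.39 and to floral bud -0.27. In Glyma16g04380, root (333 CPM) exceeded dry seed (173 CPM), whereas leaf and floral bud had 6.19 and 10.8 CPM. Glyma13g01150 had 490 CPM in dry seed, 216 in stem, 45.6 in seedling and 22.0 in root, but 0.269 in leaf and 1.44 in floral bud. Glyma17g14650 had 367 CPM in dry seed and 319 in leaf, and 10.6 CPM in root. Its log2 ratio of dry seed to leaf was 0.20 with TMM factors and -0.49 in plain CPM, so it too has no direction between these libraries.

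A subset was marked by seedling rather than mature organs. In 10 of the 144 genes (6.94%, against 0.656% of all genes) the seedling level was at least 4 times that of leaf, root, stem and floral bud. Glyma17g13730 was one of those with the highest seedling levels, with 693 CPM in seedling, 0.0448 in leaf, 3.65 in root, 4.81 in stem and 11.4 in floral bud. Its neighbour Glyma17g13720 had 31.9 CPM in seedling and 222 in floral bud, against 753 CPM in dry seed.

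In young seed most of the genes were low. Median levels were 0.662 CPM at the globular stage, 1.61 at the heart stage and 4.27 at the cotyledon stage, next to 6.65 CPM at early maturation, and 30, 32, 46 and 58 genes reached 10 CPM. Their share of counts did not follow the same order, at 0.193%, 0.195%, 0.299% and 0.225%. For the numbers of genes at 10 CPM no share over all genes was computed. From cotyledon stage to early maturation, 12 of 113 measured genes were called higher (1.91% of all genes) and 8 lower (1.44%). From heart stage 22 of 110 were called higher (3.24%) and 6 lower (1.83%), and from globular stage 31 of 107 higher (4.01%) and 6 lower (2.87%). Of the other genes with at least 100 RPKM at late maturation, 17.8% of those measured were called higher from cotyledon stage to early maturation. From heart stage it was 21.6% and from globular stage 21.8%, so rises to early maturation were not particular to the chosen genes. Called lower were 1.35% from cotyledon, 0.225% from heart and 0.901% from globular stage. These 3 comparisons share the early-maturation library.

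The genes that climbed early differed in late-maturation level, from 5304 RPKM in Glyma20g28550 and 3293 in Glyma13g36780 to 742 in Glyma05g23680. Glyma20g28550 had 0.565 CPM at the cotyledon stage and 20.3 at early maturation, 36.0-fold (22.0 to 63.3) higher. Glyma13g36780 had 0.261 CPM in globular, 0.0837 in heart, 10.9 in cotyledon and 49.7 in early-maturation seed. Glyma05g23680 had 0.0803, 4.44, 16.1 and 29.1 CPM over the same stages. These levels stayed far below dry seed, where the 3 genes had 4518, 6365 and 2349 CPM.

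In 12 genes the order was reversed, and the highest of globular, heart and cotyledon seed was at least 4 times early maturation. That is 8.33% of the 144, against 3.22% of all genes. Of these, 5 were highest at the cotyledon stage, 4 at the heart stage and 3 at the globular stage. Glyma16g04380 had 11.8, 50.7 and 70.4 CPM at the young stages, 1.56 at early maturation and 173 in dry seed, so that early maturation was 45.1-fold (34.5 to 60.1) below cotyledon stage and 111-fold (85.1 to 148) below dry seed. Glyma13g31010 had 125, 20.5 and 21.8 CPM at the young stages, 10.1 at early maturation and 219 CPM in dry seed. Glyma09g33770 had 100, 30.8 and 75.2 CPM, then 11.8 and 561 CPM. The ratio of young seed to early maturation chose these 12, and that of late to mid maturation chose the genes as a whole, so the pattern over these stages is a description.

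The highest ratio of dry seed to early maturation among these 12 was in Glyma03g29440, chosen for mention after its values were seen. It had 36.4, 57.3 and 31.3 CPM in globular, heart and cotyledon seed, 6.55 at early maturation, and 12449 CPM in dry seed. Its RPKM was 0.661 at mid and 1874 at late maturation. It had 59.2 CPM in seedling, 3.09 in leaf, 94.9 in root, 5.09 in stem and 16.7 in floral bud. Early maturation was 8.75-fold (7.60 to 10.1) below heart stage, and dry seed was 1901-fold (1671 to 2173) above early maturation.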

How the data were processed

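Reads of 12 poly(A)-selected libraries were aligned with Bowtie, and bedtools was used for mid and late maturation, per the submitters' processing notes. Not given in the sources used here are versions, genome build, gene models and how reads with several matches were treated. The authors deposited raw counts per gene for 10 libraries and RPKM for genes above 0 for mid and late maturation, so the latter form a set with another unit and other gene models. Per the labels, the mid- and late-maturation libraries were sequenced on Genome Analyzer IIx and HiSeq instruments.

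The chosen genes, the lists and the comparisons were set with earlier results of these data known. The comparisons of globular, heart and cotyledon stage with early maturation, the young-seed, seedling and organ-breadth measures, the other genes at 100 RPKM, and the rule applied to other libraries were added after values were seen. Genes named are the 10 highest at late maturation, those at the thresholds, the 2 highest and 2 lowest ratios of each comparison, the 3 highest in each of the libraries other than dry seed, neighbouring pairs, and others named after their values were seen. None of 74818 identifiers matched the table of Glycine_max_v4.0 (59048 genes), so no list built on gene descriptions was used and no sequence is shown.

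Counts were scaled with TMM factors (edgeR 4.0.16, R 4.3.3) to CPM. The dry-seed factor was 0.591, the lowest. A gene was called at 4-fold with at least 10 CPM in the higher library, with counts under 3 set to 3, and counted as measured at a mean of at least 1 CPM over both libraries. Each fold has a 95% interval, exact (Clopper-Pearson), for the 2 counts under a conditional binomial. PCR-amplified reads are not independent molecules, so the intervals and floors cover counting error only. Read depth and gene lengths were recovered from the RPKM of low genes, whose values are whole multiples of 1 read. RPKM of count libraries used these lengths, and log2(RPKM + 0.5) was called at 4-fold with at least 5 RPKM, which understates the change of low genes. Alternatives were DESeq2 1.42.0 size factors, plain CPM, and other thresholds, floors, pseudocounts and lengths. The procedures were tested on simulated data. Computation was in Python 3.11.15 with scipy 1.17.1, pandas 2.3.3, numpy 2.4.6 and matplotlib 3.10.9.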

Additional observations from a re-analysis of the deposited data

How the results depend on the processing

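No paired analysis was possible because each stage or organ had 1 library, and for the same reason no replicate could be left out. The number of chosen genes moved with the thresholds: a late-maturation minimum of 200 RPKM gave 107 in place of 162, and the other settings gave 110 (late maturation rescaled by the median ratio) to 227 (minimum of 50 RPKM). Restricted to recovered lengths from 1000 nt upward, which hold 88 of the 144 with counts, 2 were higher and 8 lower in dry seed than at late maturation (4 and 15 over all), and 49 met the rule in early maturation and dry seed (89 over all). Every other count stayed within 1.5 times its reported value under DESeq2 size factors, plain CPM, 2-fold and 8-fold thresholds, for the comparisons with early maturation and seedling also a minimum of 50 CPM or none and floors of 1 and 10 counts, and for dry seed against other libraries without neighbouring genes. Plain CPM turned the sign of 8 of 240 log2 ratios of named genes, all of them under the threshold with either scaling, and DESeq2 size factors of 0. Plain CPM also lowered most of these counts, to 114 for the fall in seedling, 102 for seed-preferred genes and 130 for genes highest in dry seed. Depth does not limit the dry-seed levels, where the 142 genes at 10 CPM or more had at least 348 counts, but 0 or 1 count in other libraries leaves large folds with wide intervals or as lower bounds.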

Other observations

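The dry seed held many other transcripts that were far lower at early maturation but were not among the late-maturation genes. Of the 208 genes that met the rule in early maturation and dry seed, 119 were not chosen from mid and late maturation. Their medians were 3.93 RPKM at early maturation, 2.09 at mid maturation, 63.1 at late maturation and 221 RPKM in dry seed. Of the 119, 84 lay under 100 RPKM at late maturation and the other 35 reached it, and 35 had at least 10 RPKM at mid maturation. Since these genes were chosen for their dry-seed level, a lower late-maturation value is favoured by the choice, and the 2 stages come from files with different units and gene models.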
